A study of Mus musculus with 12 samples.

Results

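The genes described here are the 5 NF-κB subunits Nfkb1, Nfkb2, Rel, Rela and Relb, the 3 classical inhibitors Nfkbia, Nfkbib and Nfkbie, and 2 nuclear IκB proteins, Nfkbiz and Bcl3, in mouse colorectal tissue. They were taken by symbol from the raw count table, in which all 10 were found among 18514 genes, and all 10 were among the 15484 genes that passed the filter on low counts. Compared with untreated mice, 7 of the 10 were higher in mice with colitis-associated cancer, led by Rel and Nfkbie. Of all genes tested in this comparison, 32.7% were called and 16.5% were called higher. Nfkb1, the subunit with the most RNA per transcript length in untreated mice, and Nfkbib did not pass the test. In scaled counts the groups overlapped for both. No member passed the test between swimming and non-swimming mice that were given azoxymethane and dextran sodium sulfate.

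NF-κB is a family of transcription factors that act as dimers. In resting cells the classical inhibitors IκBα (Nfkbia), IκBβ (Nfkbib) and IκBε (Nfkbie) hold the dimers in the cytoplasm, and the IKK kinase complex marks them for degradation when receptors for cytokines or bacterial products are engaged, which is the canonical route. In the non-canonical route, receptors such as CD40 and the lymphotoxin β receptor stabilise the kinase NIK (Map3k14), and the p100 protein made from Nfkb2 is cut to p52, the partner of RelB. Several of these genes, Nfkbia above all, are themselves NF-κB targets, so that the pathway writes part of its own feedback into the RNA. In the colon the pathway is known both for its role in mucosal defence and for its activity in colitis and in colitis-associated tumours. RNA levels do not report the nuclear entry or the activity of the proteins.

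The question behind the groups is what swimming does in a mouse model of colitis-associated cancer. RNA was measured in 12 male C57BL/6 mice bought at 4 weeks of age, with 1 library from each mouse and 3 mice in each of 4 groups. Ctrl mice had no treatment and did not swim, and Ctrl_Swim mice swam. Model mice received 1 injection of azoxymethane (AOM, a colon carcinogen, 10 mg/kg) followed by 3 cycles of 2% dextran sodium sulfate (DSS, which injures the colon epithelium) in the drinking water, and Model_Swim mice received the same AOM and DSS and also swam. Swimming was built up to 90 min a day, began before AOM and went on until the end, and mice that did not swim stood in shallow water. The model is induced by chemicals in wild-type mice, and no gene of the pathway was altered. The tissue was whole colorectal tissue with no sorting of cells, so a value is a mean over all cells present. The tumour content of each sample is not given in the sources used here. In such bulk samples fewer cells of a type and less RNA per cell cannot be told apart.

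The libraries held 17256953 to 19451055 counts, and 3 counts corresponded to 0.153 to 0.172 CPM, the count scaled to a common library size with the trimmed mean of M values (TMM). Colon epithelial markers were high in all 12 libraries, with Epcam, an epithelial adhesion protein, at 1251 to 1658 CPM and Cdx2, the transcription factor that defines intestinal epithelium, at 131 to 332 CPM. The libraries labelled Model 1 and Model 3 stood apart by RNA of pancreatic acinar cells: 12 acinar genes summed to 43705 CPM in Model 1 and 21234 CPM in Model 3, against 13.1 to 98.1 CPM in the other 10 libraries. Among those 10, trace acinar reads also divided the libraries, being lowest in Ctrl_Swim 2, Ctrl_Swim 4 and all 3 Model_Swim libraries, so that Model and Model_Swim lay wholly on opposite sides of this division. The library Ctrl_Swim 4 held more B cell marker RNA than the other libraries of its group, with 14 markers summing to 242 CPM against 81.4 and 110 CPM.

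Promoter sequence was examined for the letters that NF-κB dimers are known to bind. RefSeq promoter windows on GRCm38.p6, from 250 bases before to 50 bases after a start site, were at hand for 7 members, Nfkb2, Rel, Rela, Nfkbia, Nfkbib, Nfkbie and Bcl3, with 3 alternative starts for Nfkb2. The κB consensus decamer, searched on both strands, occurred in a window of 5 of these 7 genes, Nfkb2, Rel, Nfkbia, Nfkbie and Bcl3, and not in those of Rela and Nfkbib. Over all 27025 genes with windows, 9.55% held it, and over all 32851 windows 8.46% did. The first window of each of these 5 genes is printed here because it holds a match, with the matches in capitals. Positions are given with the first transcribed base counted as 1 and the base before it as -1. The first Nfkb2 window, at chr19:46304487-46304786 on the plus strand, held matches starting at -39 and -11, the Rel window, at chr11:23770920-23771219 on the minus strand, at -92, the Nfkbia window, at chr12:55492598-55492897 on the minus strand, at -29, the Nfkbie window, at chr17:45555450-45555749 on the plus strand, at -106, and the Bcl3 window, at chr7:19822706-19823005 on the minus strand, at 3, inside the transcript. The other 2 Nfkb2 windows, which are not shown, overlap each other. They also held matches, starting at -236 and 11 in the second and at -225 in the third. The match at 11 in the second and that at -225 in the third are the same bases, so they are a single site. Overlapping matches on the 2 strands form a single run of capitals in Nfkb2, Rel and Bcl3.
Nfkb2: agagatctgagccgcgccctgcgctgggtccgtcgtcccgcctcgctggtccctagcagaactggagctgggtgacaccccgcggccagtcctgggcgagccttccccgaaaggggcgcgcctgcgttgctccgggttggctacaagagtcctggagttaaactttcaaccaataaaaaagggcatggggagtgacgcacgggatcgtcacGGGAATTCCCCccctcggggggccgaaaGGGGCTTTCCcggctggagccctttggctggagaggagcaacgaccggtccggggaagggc
Rel: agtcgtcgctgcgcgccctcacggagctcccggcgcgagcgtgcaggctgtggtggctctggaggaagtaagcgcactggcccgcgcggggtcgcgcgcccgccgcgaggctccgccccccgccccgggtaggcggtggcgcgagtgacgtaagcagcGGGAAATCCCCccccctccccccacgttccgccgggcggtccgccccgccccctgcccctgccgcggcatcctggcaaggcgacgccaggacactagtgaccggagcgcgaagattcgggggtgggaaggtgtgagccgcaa
Nfkbia: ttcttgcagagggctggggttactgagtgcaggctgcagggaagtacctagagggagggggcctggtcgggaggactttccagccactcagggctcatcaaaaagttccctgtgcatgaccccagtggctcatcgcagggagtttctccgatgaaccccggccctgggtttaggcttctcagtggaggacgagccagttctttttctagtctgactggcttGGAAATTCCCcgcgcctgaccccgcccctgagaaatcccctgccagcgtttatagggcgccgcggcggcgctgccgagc
Nfkbie: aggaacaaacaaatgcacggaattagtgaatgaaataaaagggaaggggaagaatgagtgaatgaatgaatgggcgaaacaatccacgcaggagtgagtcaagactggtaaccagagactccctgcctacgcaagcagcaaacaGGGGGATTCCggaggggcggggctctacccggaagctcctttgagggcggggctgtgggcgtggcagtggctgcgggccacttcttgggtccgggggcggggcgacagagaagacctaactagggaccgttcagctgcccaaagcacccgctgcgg
Bcl3: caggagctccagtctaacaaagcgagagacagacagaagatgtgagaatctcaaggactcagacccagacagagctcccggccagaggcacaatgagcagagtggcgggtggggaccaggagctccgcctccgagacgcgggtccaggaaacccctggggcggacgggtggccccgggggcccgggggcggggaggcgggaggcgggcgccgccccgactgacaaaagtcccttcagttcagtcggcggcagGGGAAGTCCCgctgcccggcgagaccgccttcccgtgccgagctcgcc
A match describes these letters only, and no binding was measured. Among the 5 genes with a match, Nfkb2, Rel, Nfkbie and Bcl3 were called higher in Model mice by edgeR and Nfkbia was not. Of the 2 without one, Rela was called and Nfkbib was not. Of all genes tested, 16.5% were called higher. Nfkbia was called by DESeq2 and limma, and Rela and Bcl3 lost their calls when Model and Ctrl were fitted alone.

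Model mice were compared with Ctrl mice first. Of the subunits, Rel, the c-Rel protein of lymphoid and myeloid cells, had the largest difference. It stood at 3.59, 2.67 and 4.29 CPM in Ctrl 1 to 3 and at 12.01, 7.90 and 10.2 CPM in Model 1 to 3. All Model libraries lay above all Ctrl libraries, with counts of 49 to 78 against 145 to 224. The fitted rise was 2.85-fold, a log2 fold change of 1.51 (SE 0.25, adjusted p = 0.00180, edgeR quasi-likelihood test with Benjamini-Hochberg adjustment over all genes, as for every adjusted p below unless another tool is named). Rel is also the subunit with the fewest reads, so its relative counting error is the widest of the 5.

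Nfkb2, which encodes the p100 precursor of p52, measured 49.6, 44.1 and 48.5 CPM in Ctrl and 66.2, 75.7 and 57.4 CPM in Model. The groups did not overlap, and the log2 fold change was 0.49 (SE 0.10, adjusted p = 0.00430). Relb, the partner of p52 in the non-canonical dimer, read 36.04, 37.0 and 42.9 CPM in Ctrl and 52.9, 54.6 and 43.5 CPM in Model. Its highest Ctrl library lay just under its lowest Model library, Model 3, and the log2 fold change was 0.38 (SE 0.10, adjusted p = 0.0158). Rela, the p65 subunit of the canonical dimer, gave 57.0, 52.1 and 53.2 CPM in Ctrl and 74.998, 66.4 and 59.5 CPM in Model. Again every Model library lay above every Ctrl library, and the log2 fold change was 0.31 (SE 0.09, adjusted p = 0.0291), the smallest of the called subunits. Nfkb1, the gene of p105 and p50, was the subunit that did not pass, at 110.4, 113 and 110 CPM in Ctrl and 121, 112 and 117 CPM in Model. These groups overlapped, and the log2 fold change was 0.07 (SE 0.07, adjusted p = 0.441).

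Among the classical inhibitors, Nfkbie had a clear difference, with 6.73, 7.14 and 6.38 CPM in Ctrl and 14.8, 15.0 and 14.2 CPM in Model. The Model libraries were close to each other, the fold was 2.17 and the log2 fold change 1.12 (SE 0.20, adjusted p = 0.00263). Nfkbia, the fast feedback inhibitor, measured 52.4, 43.4 and 56.7 CPM in Ctrl and 79.4, 72.0 and 56.0 CPM in Model. Model 3 fell inside the Ctrl range, and the log2 fold change of 0.44 (SE 0.16) missed the threshold with an adjusted p of 0.0523. Without Model 3 the value was 0.59 with an adjusted p of 0.0134 in the same edgeR test, and without Ctrl_Swim 4 it was 0.47 with 0.0350. With all libraries Nfkbia was called by DESeq2 (adjusted p = 0.0250) and in all 3 limma fits (adjusted p = 0.0315 to 0.0466). Nfkbib, the gene of IκBβ, gave 25.6, 26.8 and 30.9 CPM in Ctrl and 25.2, 29.7 and 28.6 CPM in Model, a log2 fold change of 0.00 (SE 0.09, adjusted p = 0.975).

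Both nuclear IκB proteins were higher. Nfkbiz, the inducible cofactor IκBζ that works with p50 at secondary response genes, stood at 80.4, 39.2 and 46.6 CPM in Ctrl and at 105, 110.4 and 94.9 CPM in Model. The groups did not overlap although Ctrl 1 was far above the other Ctrl mice, and the log2 fold change was 0.90 (SE 0.22, adjusted p = 0.0112). Without Ctrl 1 it was 1.29, adjusted p = 0.00199 by the same edgeR test. Bcl3, a partner of p50 and p52 homodimers, measured 44.4, 28.5 and 35.8 CPM in Ctrl and 72.7, 75.4 and 43.7 CPM in Model. Here Model 3 lay just under Ctrl 1, so the groups overlapped, and the log2 fold change was 0.82 (SE 0.20, adjusted p = 0.0113).

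In all, 7 of the 10 members were called at an adjusted p under 0.05 in Model against Ctrl, each of them higher, where 32.7% of all genes tested were called and 16.5% were called higher. The median log2 fold change was 0.47 over the 10 members and 0.01 over all genes tested. With a 2-fold cutoff in addition, Rel and Nfkbie were left, where 7.43% of all genes passed. For 6 members, the called ones apart from Bcl3, all Model libraries lay above all Ctrl libraries, which held for 21% of all genes. The count of 7 became 6 without the libraries Model 1 and Model 3, in a fit where the single Model library left is assumed to vary like the other groups. Rela was then at a log2 fold change of 0.28 against 0.31 with all libraries, and its adjusted p was 0.0773 by edgeR. The count was 4 when Model and Ctrl were fitted without the swimming groups, when Rela, Relb and Bcl3 had adjusted p of 0.0646, 0.0549 and 0.05001 by edgeR. Rela and Relb also lost their calls when single libraries were left out, Rela without Ctrl 2, Ctrl 3, Model 1 or Model 2 and Relb without Ctrl 1, Ctrl 2 or Model 2.

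**Figure D1:**
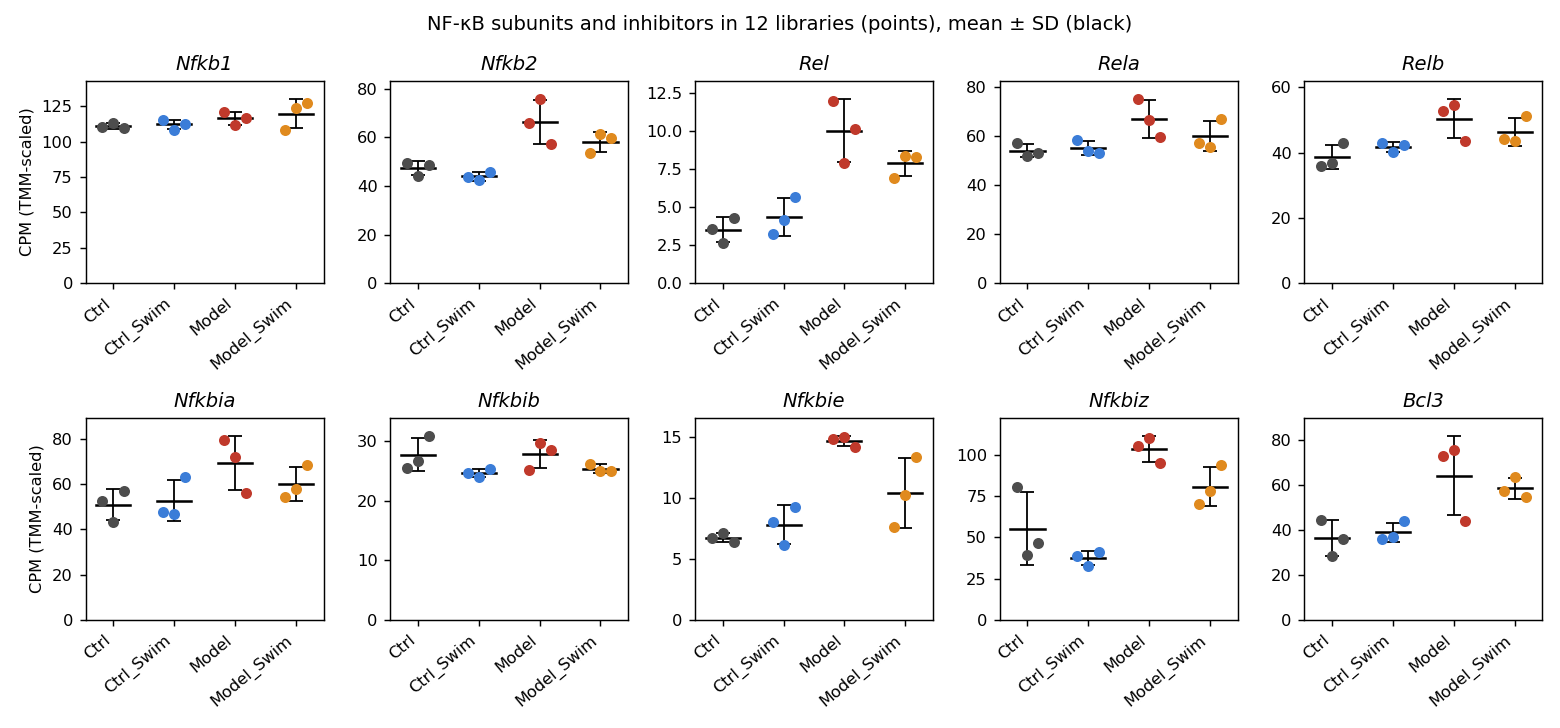
Level of each of the 10 genes in CPM (TMM-scaled, vertical axes from 0) in the 4 groups, with 1 point for each of the 12 mice and the mean ± SD of 3 mice in black. The Model points of Rel lie between 7.90 and 12.01 CPM above Ctrl points of at most 4.29 CPM, while the points of Nfkb1 and Nfkbib are level across the groups.

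Swimming was then examined in mice with AOM and DSS. In Model_Swim against Model, 0 of the 10 members were called by edgeR, by DESeq2 or by limma on FPKM, and 1, Nfkbie, had an unadjusted p under 0.05. Of all genes tested, edgeR called 0.071%, and an unadjusted p under 0.05 was found for 13.6%. The 11 genes called became 882 of 15681 without Model 3, 6 to 81 when any other single library was left out, and 361 by DESeq2, with 0 members among them in each case. Nfkbie measured 7.60, 10.2 and 13.4 CPM in Model_Swim 1 to 3 against 14.2 to 15.0 CPM in Model. All Model_Swim libraries were below all Model libraries, with Model_Swim 1 near the Ctrl level and Model_Swim 3 near the Model level, and the log2 fold change was -0.50 (SE 0.20, unadjusted p = 0.0273, adjusted p = 0.310). Nfkbiz, at 70.1, 78.4 and 93.6 CPM in Model_Swim, was also below every Model library, by a narrow margin for Model_Swim 3, with a log2 fold change of -0.36 (SE 0.22, adjusted p = 0.507). These 2 members were the ones whose groups did not overlap, and 8.57% of all genes were lower without overlap.

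The remaining values in Model_Swim were lower than in Model on average in every case but Nfkb1, without passing the test. Rel read 6.93, 8.38 and 8.32 CPM, around the level of Model 2 and above all Ctrl mice, for a log2 fold change of -0.35 (SE 0.24, adjusted p = 0.557) that came to 0.01 without Model 1 and Model 3. Nfkb2 read 53.4, 61.2 and 60.0 CPM, all above the Ctrl range, for a log2 fold change of -0.19 (SE 0.10, adjusted p = 0.422). Bcl3 read 57.3, 63.3 and 54.3 CPM, all between Model 3 and the other Model mice, for a log2 fold change of -0.13 (SE 0.20, adjusted p = 0.818). For Nfkbia the Model_Swim libraries held 54.0, 57.7 and 68.3 CPM, for Rela 57.3, 55.7 and 66.9 CPM, for Relb 44.3, 43.5 and 51.1 CPM and for Nfkbib 26.3, 24.96 and 25.02 CPM. These 4 genes had log2 fold changes from -0.20 to -0.12, each with overlapping groups. Nfkb1 stood at 108, 124 and 127 CPM and differed by 0.04 (SE 0.07, adjusted p = 0.844).

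On the log2 CPM scale the Model_Swim mean of 8 members, all but Nfkb1 and Nfkbib, lay between the Ctrl and the Model mean. Of the Model minus Ctrl difference in mean log2 CPM, Model_Swim kept 48.1% for Rela, 52.1% for Nfkbie, 55.1% for Nfkbia, 61.8% for Nfkb2, 62.2% for Nfkbiz, 69.1% for Relb, 78.0% for Rel and 88.3% for Bcl3. These positions are a description, since none of the Model_Swim against Model differences passed. With the division by trace acinar reads as a term, which can be estimated only from Ctrl_Swim 3 against the other 2 Ctrl_Swim libraries, Nfkbie was at -0.99 and Nfkbiz at -0.66, both with an adjusted p of 0.981 by edgeR. Whether that division had a part in the Model_Swim values cannot be told apart from swimming.

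The same AOM and DSS comparison among swimming mice, Model_Swim against Ctrl_Swim, called 2 members, Nfkb2 and Nfkbiz, where 5.18% of all genes were called and 3.49% were called higher. Nfkbiz was at 38.9, 32.5 and 41.0 CPM in Ctrl_Swim 2 to 4 against 70.1 to 93.6 CPM in Model_Swim. The groups were far apart, the fold was 2.15 and the log2 fold change 1.11 (SE 0.22, adjusted p = 0.0230). Nfkb2 was at 43.8, 42.3 and 45.7 CPM in Ctrl_Swim against 53.4 to 61.2 CPM in Model_Swim, a log2 fold change of 0.41 (SE 0.10, adjusted p = 0.0398). Rel, Relb and Bcl3 were also higher without overlap, which held for 15.9% of all genes, and did not pass. Rel was at 3.23, 4.15 and 5.67 CPM in Ctrl_Swim, a log2 fold change of 0.85 (SE 0.24, adjusted p = 0.0686). Bcl3 was at 35.998, 36.8 and 43.7 CPM, a log2 fold change of 0.59 (SE 0.20, adjusted p = 0.115), and Relb at 42.8, 40.2 and 42.3 CPM, a log2 fold change of 0.15 (SE 0.10, adjusted p = 0.422).

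The other 5 members had log2 fold changes from 0.04 for Nfkbib to 0.41 for Nfkbie in that comparison. Nfkbie read 7.9995, 6.17 and 9.30 CPM in Ctrl_Swim, and Model_Swim 1 lay below Ctrl_Swim 2 and Ctrl_Swim 4. With the 2-fold cutoff Nfkbiz was left, where 1% of all genes passed. The count of 2 fell to 0 without Ctrl_Swim 2, without Ctrl_Swim 3, without Model_Swim 2 or without Model_Swim 3, and to 1 without any 1 of Ctrl 1, Ctrl 2, Ctrl 3, Ctrl_Swim 4 and Model_Swim 1. It was 3 without Model 3 and 4 by DESeq2, which added Rel (adjusted p = 0.0191) and Bcl3 (adjusted p = 0.0417). Both calls were lost with the term for trace acinar reads, with an adjusted p of 0.116 for Nfkb2 and 0.0820 for Nfkbiz by edgeR, and with the replicate block, at 0.143 and 0.112. Nfkb2 was also lost in all 3 limma fits, with an adjusted p of 0.0574 to 0.0800.

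**Figure D2:**
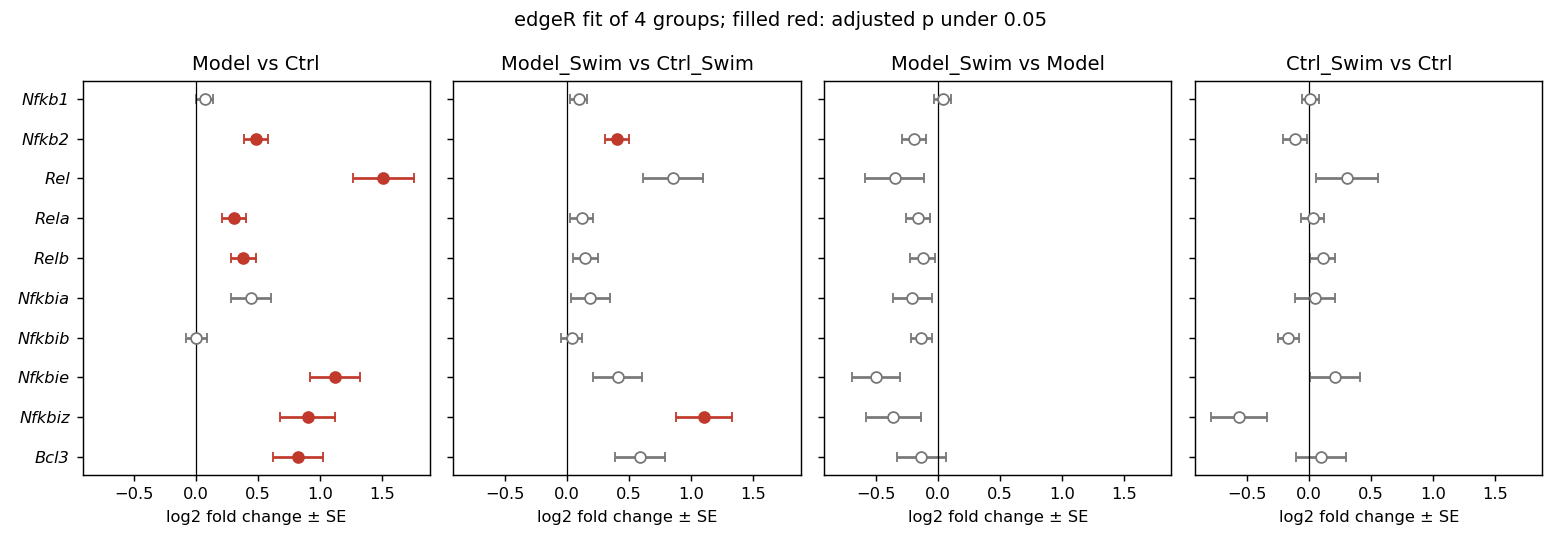
Log2 fold changes ± SE of the 10 genes in 4 comparisons from 1 edgeR fit of all 12 libraries, with filled red points where the adjusted p is under 0.05. Model against Ctrl has 7 filled points from 0.31 to 1.51, Model_Swim against Ctrl_Swim has 2, and both swimming comparisons have 0.

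In untreated mice, Ctrl_Swim against Ctrl, 0 members were called by edgeR, DESeq2 or limma, and 1 had an unadjusted p under 0.05, against 0.969% of all genes called by edgeR and 17.6% with an unadjusted p under 0.05. That member was Nfkbiz, at a log2 fold change of -0.56 (SE 0.22, unadjusted p = 0.0280, adjusted p = 0.234). The value rests partly on Ctrl 1, whose 80.4 CPM was far above the other Ctrl libraries, and without Ctrl 1 it was -0.18. Nfkbib was the member lower without overlap, at 24.8, 24.1 and 25.4 CPM in Ctrl_Swim against 25.6 to 30.9 CPM in Ctrl, a log2 fold change of -0.17 (SE 0.09, adjusted p = 0.343). Of all genes, 14.9% were lower without overlap. Nfkb1 at 115, 109 and 113 CPM, Rela at 58.5, 54.0 and 53.3 CPM and Nfkbia at 47.8, 46.9 and 63.2 CPM in Ctrl_Swim had log2 fold changes of 0.01, 0.03 and 0.05. Rel had the largest positive value, 0.31 (SE 0.25, adjusted p = 0.539). Nfkbie was at 0.21, Relb at 0.11, Bcl3 at 0.10 and Nfkb2 at -0.11, and the groups overlapped for Rel and each of these.

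The effect of swimming in AOM and DSS mice was tested against its effect in untreated mice by the interaction term. It called 0 members by edgeR, DESeq2 or limma, and 0 of all 15484 genes by edgeR, a share of 0%, although 2947 genes, 19%, had an unadjusted p under 0.05 and DESeq2 called 777 genes. The edgeR count was 716 genes without Model 3, 195 without Ctrl_Swim 2, 70 without Model 1 and 49 without Model 2, each with 0 members. The member with an unadjusted p under 0.05 was Nfkbie, with an interaction of -0.71 on the log2 scale (SE 0.28, unadjusted p = 0.0274, adjusted p = 0.210). Its swimming difference was 0.21 (SE 0.20) in untreated mice and -0.50 (SE 0.20) in AOM and DSS mice.

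Levels can be set beside each other between genes only per transcript length, and the FPKM values of the authors (fragments scaled by transcript length and library size) were used for this. In Ctrl, Nfkbia was highest at 30.3 ± 3.8 FPKM (SD, n = 3), followed by Nfkb1 at 22.9 ± 0.68, and no library of one overlapped the other. Bcl3 at 18.4 ± 3.8 and Rela at 17.5 ± 0.65 overlapped, and Rela, Nfkbiz (13.4 ± 5.2), Relb (12.8 ± 1.2), Nfkbib (12.3 ± 1.2) and Nfkb2 (12.03 ± 0.60) each overlapped the next in the order. Nfkbie at 2.61 ± 0.17 and Rel at 1.28 ± 0.29 FPKM were lowest, apart from the rest and from each other.

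In Model the order was Nfkbia at 44.7 ± 7.9, Bcl3 at 35.4 ± 10.01, Nfkbiz at 27.2 ± 2.4, Nfkb1 at 26.03 ± 0.79, Rela at 23.4 ± 2.7, Nfkb2 at 18.3 ± 2.8 and Relb at 18.1 ± 2.3 FPKM, and in this run each overlapped its neighbour. Below them Nfkbib (13.4 ± 1.3), Nfkbie (6.14 ± 0.24) and Rel (3.95 ± 0.77) were separate from their neighbours. By their means both nuclear IκB proteins stood above Nfkb1, although Nfkbiz and Nfkb1 overlapped. Unlike in CPM, Nfkb1 did not overlap between groups in FPKM, at 22.5 to 23.7 in Ctrl and 25.4 to 26.9 in Model. Its log2 fold change by limma on log2(FPKM + 1) was 0.18 (adjusted p = 0.0602). FPKM has no TMM scaling, and in that limma fit the median over all genes was 0.08. In Model_Swim, Bcl3 at 31.9 ± 2.5 FPKM again stood above Nfkb1 at 26.5 ± 2.4 without overlap, and Nfkbiz at 21.0 ± 3.2 overlapped Nfkb1 and lay next below it. In Ctrl_Swim the top 4 genes were in the Ctrl order, Nfkbia at 34.5 ± 7.5, Nfkb1 at 25.3 ± 1.1, Bcl3 at 21.7 ± 3.3 and Rela at 19.5 ± 0.25 FPKM.

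**Figure D3:**
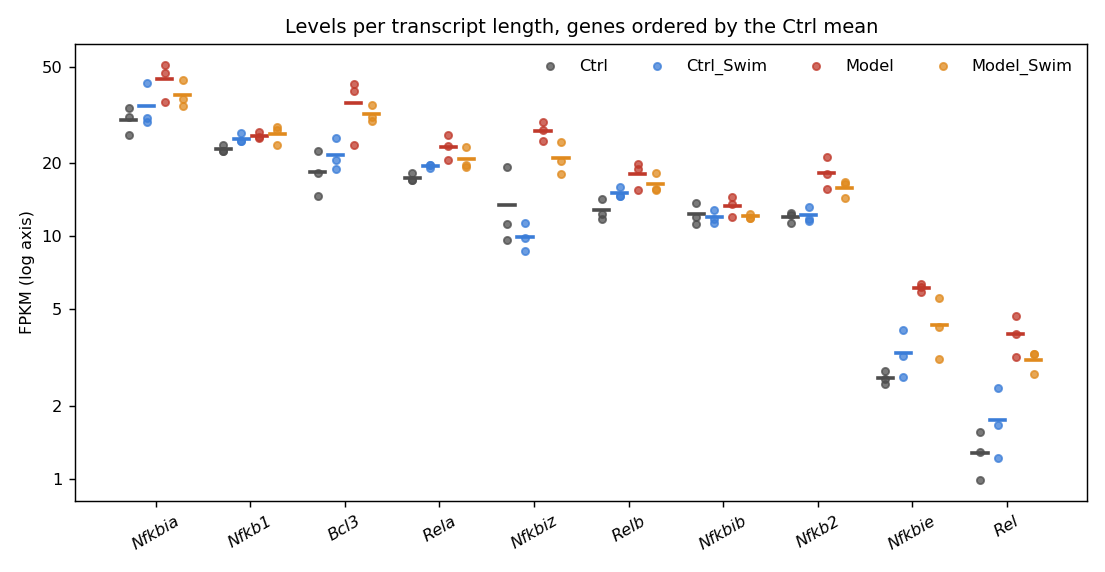
FPKM (log axis) of each gene in the 12 libraries, with genes ordered by their Ctrl mean, 1 point for each mouse and a bar at the mean of each group. Rel and Nfkbie are the lowest genes in all 4 groups, and Nfkbia is the highest by its mean in all 4.

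The makeup of the subunit pool was described in the same unit. Of the summed FPKM of the 5 subunits, Nfkb1 made up 34.5 ± 1.5% in Ctrl and 29.1 ± 2.3% in Model (SD, n = 3), with 33.3 to 36.2% against 27.3 to 31.6% in single libraries. Rel made up 1.92 ± 0.40% in Ctrl and 4.42 ± 0.88% in Model, again without overlap, and 3.72 ± 0.24% in Model_Swim. Nfkb2 made up 18.1 ± 0.73% in Ctrl and 20.3 ± 2.0% in Model, with 17.3 to 18.8% against 19.1 to 22.7% in single libraries, also without overlap. The share of Rela was 26.3 ± 1.1% in Ctrl and 26.05 ± 1.3% in Model, and that of Relb 19.2 ± 1.6% and 20.1 ± 1.2%, both overlapping. In Ctrl the summed FPKM was 66.5 ± 1.1 for the subunits and 45.2 ± 4.4 for the 3 classical inhibitors. In Model these sums were 89.7 ± 7.3 and 64.2 ± 7.7. They are not TMM-scaled, and the median log2 fold change over all genes was 0.08 by limma on log2(FPKM + 1). In CPM, TMM-scaled but not per transcript length, the group median of the subunit sum was 256.6 in Ctrl and 316.7 in Model. For the classical inhibitors it was 84.8 and 116.8 CPM. The ratio of inhibitor to subunit FPKM was 0.680 ± 0.055 in Ctrl, 0.671 ± 0.086 in Ctrl_Swim, 0.714 ± 0.030 in Model and 0.662 ± 0.022 in Model_Swim, and all 4 ranges overlapped. These are descriptions of RNA with no test, and say nothing of the ratio of the proteins.

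Model 3 was the lowest Model library for 7 of the 10 members and for 32.8% of all genes tested, and Model 2 or Model 1 was the highest for each of the 10. Over all 12 libraries Model 2 held the highest value of 5 members and Model 1 of 3, while Ctrl 2 and Ctrl_Swim 3 held the lowest of 4 members each. Model_Swim 3 was the highest of its group for 6 members and Ctrl_Swim 4 the highest of its group for 7. Markers of other cell types also differed between libraries of a group, in both directions. The sum of 10 neutrophil markers was 138, 89.9 and 22.4 CPM in Model 1 to 3 and 35.7, 78.6 and 179 CPM in Model_Swim 1 to 3, and the sum of 10 markers of squamous epithelium was 532, 1411 and 4.19 CPM in Model 1 to 3. Other lists were highest in Model 3, with sums in Model 1 to 3 of 228, 224 and 263 CPM for B cells, 89.3, 98.8 and 132 CPM for T cells, 476, 518 and 522 CPM for macrophages and 1285, 1538 and 1720 CPM for plasma cells. The part of these cells in the member values was not tested.

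The groups also differed in cell type markers. Of all genes tested, 32.7% were called in Model against Ctrl and 16.5% were called higher. In Model against Ctrl, 13 of 14 B cell markers, 9 of 12 T cell markers, 9 of 11 macrophage markers, 4 of 8 dendritic cell markers, 6 of 9 tested neutrophil markers and 7 of 8 fibroblast markers were called higher, and 10 of 12 epithelial markers and 1 macrophage marker, Cd163, were called lower. B cell markers summed to 62.5 to 120 CPM in Ctrl and 224 to 263 CPM in Model, T cell markers to 40.7 to 47.2 and 89.3 to 132 CPM, macrophage markers to 299.98 to 325 and 476 to 522 CPM, fibroblast markers to 1482 to 1609 and 2550 to 2824 CPM, and epithelial markers to 17211 to 19272 and 12834 to 13193 CPM. None of these 5 sums overlapped between Ctrl and Model, and the defining markers of these lists were above 0 in all 12 libraries. In Model_Swim the B cell sum was 80.1 to 122 CPM, near the Ctrl range, whereas the macrophage sum was 431 to 504 CPM and the fibroblast sum 1971 to 2578 CPM. The 7 called members were higher in Model along with the markers of immune cells and fibroblasts and along with lower epithelial markers, and the part of cell makeup in their values was not tested. Without Model 1 and Model 3 the calls were 2 of 14 for B cells, 2 of 12 for T cells and 9 of 11 for macrophages, from a fit in which the remaining Model library is assumed to vary like the other groups. Leaving out single libraries moved some of these counts: B cells to 3 without Ctrl 2 and 5 without Ctrl 3, T cells to 2 without Ctrl 1 or Model 3, 5 without Ctrl 2 and 3 without Ctrl 3, dendritic cells to 2 without Ctrl 2 or Ctrl 3, and epithelium to 6 without Ctrl 3. Of the other lists, 1 of 7 plasma cell, 0 of 7 smooth muscle, 2 of 6 endothelial, 7 of 10 squamous and 11 of 11 tested acinar markers were called, each higher. Smooth muscle markers had 0 unadjusted p under 0.05 and 0 calls by DESeq2, and the squamous calls were 0 without any 1 of Ctrl 1, Ctrl 2, Ctrl 3 and Model 2.

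**Figure D4:**
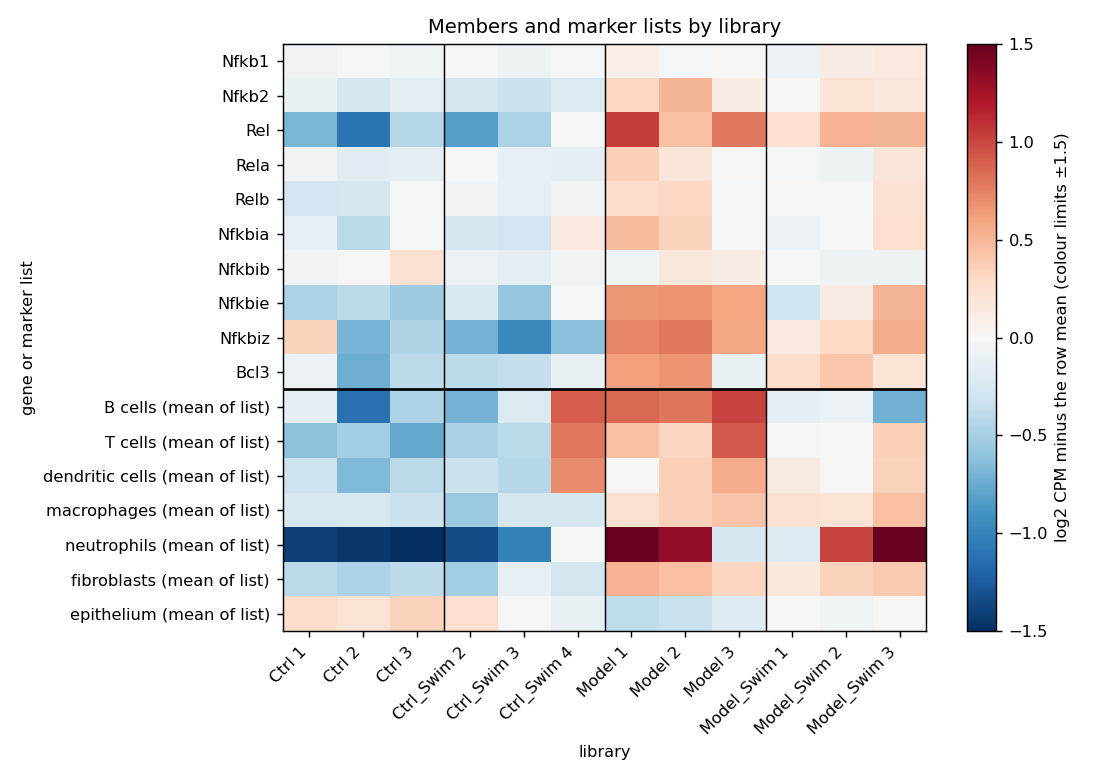
Log2 CPM minus the row mean for the 10 genes (above the line) and the mean log2 CPM of 7 marker lists (below it) in 12 libraries, red where a library is above its row mean. Model libraries are red for Rel, Nfkbie and Nfkbiz, the B cell row is also red in Ctrl_Swim 4, and the epithelial row is blue in Model.

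Upstream of the members are the IKK complex and adaptor genes. Of 29 genes, 9 were called higher in Model against Ctrl, against 16.5% of all genes. A further 1 was called lower, and the share called in either direction was near the 32.7% of all genes. The median log2 fold change was 0.10, and the 10 calls became 6 without Ctrl 2, without Ctrl 3 or without Model 2. Ikbkb, the kinase subunit of the canonical route, rose from 61.4 to 63.5 CPM in Ctrl to 79.4 to 84.1 CPM in Model, a log2 fold change of 0.39 (SE 0.07, adjusted p = 0.00237). Chuk, the kinase IKKα used by the non-canonical route, was the gene called lower, from 97.7 to 106 CPM to 77.3 to 83.0 CPM, a log2 fold change of -0.34 (SE 0.07, adjusted p = 0.00455). Ikbkg, the regulatory subunit NEMO, did not pass, at 49.8 to 51.2 and 53.4 to 55.1 CPM (0.11, SE 0.06, adjusted p = 0.152). The kinase gene Map3k14 (NIK) was higher by 0.66 (SE 0.16, adjusted p = 0.0103). Among the larger called differences were those of Card9, an adaptor of myeloid cells (1.08, SE 0.33, adjusted p = 0.0271), and Map3k8, the kinase held by p105 (0.82, SE 0.27, adjusted p = 0.0394).

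Of 15 brakes of the pathway outside the 10 members, 4 were called higher, against 16.5% of all genes. A further 1, Tax1bp1, was called lower, and the share called in either direction was again near the 32.7% of all genes. The median was 0.09, and the 5 calls became 3 without Ctrl 3 or without Model 2. Nfkbid, a further nuclear IκB protein, rose from 2.56 to 3.48 CPM in Ctrl to 5.63 to 6.97 CPM in Model, a log2 fold change of 1.02 (SE 0.24, adjusted p = 0.00944). Tnfaip3, the ubiquitin-editing enzyme A20, rose from 33.2 to 41.6 CPM to 48.3 to 80.6 CPM (0.81, SE 0.15, adjusted p = 0.00289), and Tnip2, a protein that binds A20, by 0.44 (SE 0.13, adjusted p = 0.0247). In Model_Swim against Ctrl_Swim, where 3.49% of all genes were called higher, Tnfaip3, Tnip3, Zc3h12a and N4bp1 were called, all higher. All 4 calls were lost when any 1 of the 6 libraries compared was left out. With the term for trace acinar reads or with the replicate block 0 brakes were called, and DESeq2 and limma each called 4.

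Of the 34 target genes 32 were tested, and 23 were called higher and 1, Sod2, lower, where 16.5% of all genes were called higher. Their median log2 fold change was 1.32. The list summed to 888, 968 and 640 CPM in Model 1 to 3 against 469 to 533 CPM in Ctrl, and was lowest in Model 3, as were the neutrophil and squamous sums above. The part of those cells in the target values was not tested. Cxcl5, a chemokine for neutrophils, stood at 0.220 to 0.327 CPM in Ctrl and 2.98 to 55.5 CPM in Model, a log2 fold change of 6.79 (SE 1.20, adjusted p = 0.00246), and its Model libraries were widely spread. Its Ctrl values lay little above 3 counts, which were 0.164 to 0.166 CPM in those libraries, so the size of this fold rests on few reads. Il1a, the cytokine interleukin 1α, and Cxcl2, another neutrophil chemokine, were at 3 counts or fewer in each Ctrl library and at 1.03 to 4.72 and 0.230 to 5.31 CPM in Model, so their fitted folds depend on the prior count and are not given. Birc3, an inhibitor of apoptosis that is induced by NF-κB, rose from 48.5 to 59.9 CPM to 61.0 to 97.9 CPM (0.60, SE 0.15, adjusted p = 0.0118). In Model_Swim against Ctrl_Swim, where 3.49% of all genes were called higher, 10 of the 32 were called higher and 0 lower. That count was 17 without Model 3, 6 without Ctrl 2 or Model_Swim 1, 3 without Model_Swim 2 and 2 without Ctrl_Swim 2, Ctrl_Swim 3 or Model_Swim 3. It was 18 by DESeq2, 8 by limma, 2 with the term for trace acinar reads and 0 with the replicate block.

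Ligands and receptors of the non-canonical route were higher for 5 of 12 genes and lower for 1, Ltbr, with a median of 1.33. Of all genes tested, 32.7% were called and 16.5% were called higher. These shares also apply to the chemokine targets below. Tnfrsf13c, the BAFF receptor of B cells, rose by 1.95 (SE 0.34, adjusted p = 0.00245), Tnfsf11, the ligand RANKL, by 1.82 (SE 0.59, adjusted p = 0.0373), Ltb, lymphotoxin β, by 1.64 (SE 0.30, adjusted p = 0.00316) and Cd40 by 1.19 (SE 0.29, adjusted p = 0.0104). Tnfsf13b, the BAFF gene, was at 0.54 (SE 0.21) and did not pass, adjusted p = 0.0669. Tnfrsf13c, Ltb and Cd40 are expressed by B cells, whose markers were higher in the same libraries, and the part of B cells in these values was not tested. Of 5 chemokine and addressin targets of this route 4 were called higher, among them Madcam1 (1.06, SE 0.26, adjusted p = 0.0101), Cxcl13 (0.86, SE 0.23, adjusted p = 0.0171) and Ccl21a (0.85, SE 0.21, adjusted p = 0.0119). The chemokine count was 2 without Ctrl 3 and 2 without Model 1 and Model 3 together. Neither of these 2 lists had a called gene in Model_Swim against Ctrl_Swim, where 1 of 12 ligands and receptors and 0 of 5 chemokine targets had an unadjusted p under 0.05, and DESeq2 and limma called 0.

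**Figure D5:**
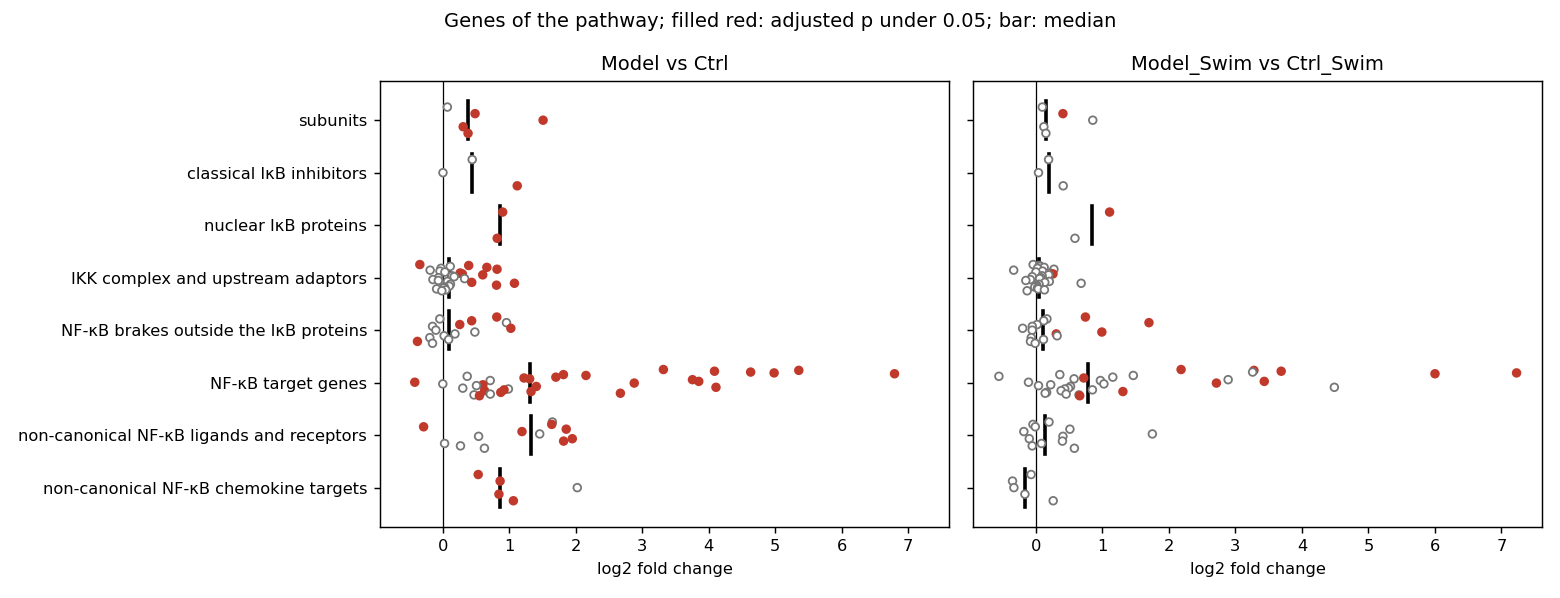
Log2 fold changes of the tested genes in 8 lists of the pathway, in Model against Ctrl (left) and in Model_Swim against Ctrl_Swim (right), with filled red points where the adjusted p is under 0.05 and a bar at the median of each list. Target genes reach 6.79 on the left, for Cxcl5 with few reads in Ctrl, and have a median of 1.32. The median of the 29 IKK and adaptor genes is 0.10.

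In Model_Swim against Model, 0 genes in any of the 5 lists beyond the members were called by edgeR, DESeq2 or limma. Unadjusted p under 0.05 were found for 6 of 29 IKK and adaptor genes, 5 of 15 brakes, 5 of 32 target genes, 4 of 12 ligands and receptors and 1 of 5 chemokine targets, where 13.6% of all genes had one. The medians were -0.11, 0.02, -0.28, -0.41 and -0.35 on the log2 scale, against -0.01 over all genes tested. When Model 3 was left out, edgeR called 2 brakes, 1 target gene and 1 ligand or receptor lower.

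The genes whose centred log2 CPM over the 12 libraries was nearest to that of a member, by root mean square difference among 13596 genes, are named as a description. Nearest to Nfkbiz was Zc3h12a, the RNase Regnase-1 (0.20, against a spread of 0.62 for Nfkbiz itself), to Nfkbie Srgn, the proteoglycan serglycin of immune cell granules (0.13 against 0.47), to Rel Ccdc88b (0.21 against 0.66), to Nfkb2 Tmem43 (0.09 against 0.25) and to Bcl3 Myof (0.15 against 0.42). Tm4sf1 was nearest to Relb (0.08 against 0.18) and second nearest to Nfkbia (0.13 against 0.25) after Zfp867. For Nfkb1, whose own spread was 0.07, and Nfkbib, at 0.11, the nearest genes were Marveld2 (0.04) and Pcyt2 (0.06), and for Rela, at 0.15, Asxl1 (0.07). The distances of the level members are small because the members themselves barely vary.

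By the RefSeq annotation of GRCm38.p6, Rel lies on the minus strand at chr11:23736847-23770969, Nfkbie on the plus strand at chr17:45555700-45563169, Nfkbia on the minus strand at chr12:55489409-55492647 and Nfkbiz on the minus strand at chr16:55811375-55838954, and Rela (plus) and Relb (minus) at chr19:5637442-5648134 and chr7:19606217-19629438, with no other annotated gene overlapping them in GENCODE. Nfkb1 (minus strand, chr3:135584655-135691969), Nfkb2 (plus, chr19:46300994-46312400), Nfkbib (minus, chr7:28758251-28766644) and Bcl3 (minus, chr7:19808462-19822824) each overlap at least 1 other annotated gene, among them Psd at Nfkb2, Sirt2 and Ccer2 at Nfkbib and 2 antisense transcripts at Bcl3. The library kit keeps strand, and whether the counting used it is not given in the sources used here. Reads of Nfkb2, Nfkbib and Bcl3, whose overlapping genes lie on the other strand, may therefore be mixed with those of their neighbours. Gm43430, which overlaps Nfkb1, lies on the same strand as Nfkb1, so strand would not separate their reads.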

How the data were processed

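RNA was sequenced from colorectal tissue of 12 mice, 1 library each, with polyA selection and a strand-keeping TruSeq kit. Per the study's methods, low-quality reads were removed with Trimmomatic and HISAT2 placed the reads on GRCm38.p6, after which the authors obtained counts from HTSeq-count and FPKM from Cufflinks. Versions and the annotation are not given in the sources used here. RNA isolation is described as TRIzol in the methods and as a mirVana kit in the labels. The authors deposited raw counts, as whole numbers without normalization, and FPKM values, which are scaled by transcript length and library size, both for 18514 genes. No column was left unmapped to a sample.

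The count table was fitted with edgeR 4.0.16 under R 4.3.3: TMM scaling, the default low-count filter (minimum count 10), a quasi-likelihood fit of the 4 groups over all 12 libraries, and Benjamini-Hochberg adjustment over all genes tested, with calls at 0.05. The replicates are separate mice. The doses come from the study's methods. Alternatives were DESeq2 1.42.0 and its size factors, limma 3.58.1 on log2(FPKM + 1) and log2(FPKM + 0.1), no low-count filter, the groups compared alone, a replicate block, a 2-fold cutoff, TMM without acinar genes, a term for trace acinar reads, and leaving out libraries. The acinar term divides libraries at 0.02% of the mean of Model 1 and Model 3, by the median over 12 genes. The median was chosen after the sum was found to put no library under the limit. Levels between genes were compared in FPKM. The code was tested on simulated counts.

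The members and gene lists were chosen with earlier results of these data known. Besides the members and 10 fixed genes of the pathway, the text names the 3 called genes of each list with the largest change in Model against Ctrl and a mean of at least 1 CPM, and the nearest genes of each member. One gene that this rule names is not reported here. Names of calls lost or gained, Tax1bp1, Sod2, Ltbr, Cd163, Tnip3, Zc3h12a and N4bp1, were added after their values were seen. Promoter sequences and gene positions are from RefSeq on GRCm38.p6, and overlapping genes from GENCODE. Totals of 17256953 to 19451055 counts limit Rel most, with 49 to 224 counts in a library.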

Additional observations from a re-analysis of the deposited data

How the results depend on the processing

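With 3 mice in each group, calls near the threshold depended on single libraries. In Model against Ctrl, the 7 calls became 4 with only the groups compared and 2 with the 2-fold cutoff, and ranged from 5 to 8 as single libraries were left out. They were 8 by DESeq2 and by limma, each of which added Nfkbia. They were 7 with the acinar term and 6 with a replicate block, where Rela was lost with an adjusted p of 0.0569 in edgeR. In Model_Swim against Ctrl_Swim, the 2 calls became 4 by DESeq2, 4 without Model 1 and Model 3, 1 with the 2-fold cutoff, 1 in each of the 3 limma fits, 0 with the acinar term and 0 with the replicate block, and ranged from 0 to 3 as single libraries were left out. The other comparisons had 0 calls under every alternative run, and the interaction could not be fitted with only the groups compared. The groups share only replicate numbers. Correlations of deviations between same-numbered libraries ran from -0.26 to 0.56, and they cannot show whether the numbers pair animals. The replicate block changed no other call of a member. Over the 4 comparisons, 5, 4, 12 and 0 of 240 alternative values each (Model against Ctrl, Model_Swim against Model, Ctrl_Swim against Ctrl, Model_Swim against Ctrl_Swim) changed direction, none of them called in either fit. On the log2 scale, Nfkb1 in Model against Ctrl was -0.0071 without Model 1 and Model 3, and Rel in Model_Swim against Model was 0.013. With the acinar term, Nfkb1 was -0.031 in Model_Swim against Model, and in Ctrl_Swim against Ctrl Nfkb1 was -0.033, Rela -0.0026, Nfkbia -0.12 and Nfkbie -0.13. With the replicate block, Ctrl_Swim against Ctrl gave -0.0054 for Nfkb1 and -0.080 for Nfkbia. By limma, Nfkb2 in Ctrl_Swim against Ctrl was 0.019 with a pseudocount of 1, 0.020 with 0.1 and 0.019 without a filter. As single libraries were left out, Nfkb1 in Model_Swim against Model ran from -0.022 to 0.096, Nfkbib in Model against Ctrl from -0.030 to 0.11, and in Ctrl_Swim against Ctrl Nfkbia from -0.094 to 0.15 and Bcl3 from -0.032 to 0.29. The cause of these changes was not tested.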
